A study of Oryza sativa with 6 samples.

Results

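The circadian clock genes of rice were examined in internode RNA from OsCAld5H1-knockout plants and from wild-type plants. The group holds 9 loci chosen by gene name, with earlier results of these data known: LHY, the pseudo-response regulators PRR73, PRR37, PRR95 and PRR59, GI, TOC1 (also called PRR1), LUX (also called PCL1) and ELF3. They are 9 of the 29689 loci with a probe on the array, and every probe whose name begins with one of these loci was taken, which gave 27 of 42418 probes. Of these, 26 probes from 8 loci were bright enough to be tested, and the single LUX probe was not. The names LHY, PRR73, PRR37, PRR95, PRR1, PCL1 and ELF3 stand in the RefSeq gene table, each on the chromosome named in its locus identifier. Those of GI and PRR59 do not occur there and rest on prior knowledge of rice nomenclature.

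In plants the clock is a loop of transcription factors that repress one another in turn through the day. LHY is a MYB-type factor made around dawn, and the pseudo-response regulators are repressors that follow it in sequence through the day, TOC1 being the last of them. LUX and ELF3 belong to the evening complex, a repressor that acts at night, and GI is a large protein made late in the day that links the clock to photoperiodic flowering. In rice, PRR37 and ELF3 are also heading date genes. The relative levels of dawn and dusk genes depend on the hour at which tissue is cut, so that they bear on whether samples were taken at the same time of day. No source used here gives the hour of harvest.

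The knockout group was 3 arrays of plants in which CRISPR/Cas9 had mutated OsCAld5H1, a coniferaldehyde 5-hydroxylase gene of syringyl lignin synthesis. All came from the T2 generation of 1 line, so that line and genotype cannot be told apart. The wild-type group was 3 arrays of unedited plants, and both groups were cultivar Nipponbare. Tissue was cut at heading from the mid part of the internode next below the topmost, from plants kept at 27 °C with a photoperiod of 12 h.

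Signal is given below as the log2 of the processed spot intensity minus the 75th percentile of that array, so that 0 is the brightness at that percentile. Precision is limited by having 3 arrays per genotype. Each array had 74.3% to 78.3% of its gene spots well above background and 0 saturated ones. The targeted gene itself was at -4.00, -1.78 and -1.23 in knockout replicates 1, 2 and 3, and at -0.54, -0.52 and -0.05 in wild-type replicates 1, 2 and 3 (limma adjusted p = 0.205). A mutation made by Cas9 need not change the RNA level, so these values are a weak check of the labels. The knockout arrays shared 1 slide and scan and the wild-type arrays another, so slide, scan and genotype cannot be told apart. Knockout replicate 1 stood apart from the other knockout arrays. Over all tested probes it correlated with them at 0.972 and 0.968, while knockout replicates 2 and 3 correlated with each other at 0.984. Wild-type arrays correlated with each other at 0.991 to 0.992, and knockout with wild-type arrays at 0.961 to 0.981. The knockout arrays were thus less alike than the wild-type arrays, and not always closer to each other than to wild-type arrays. Markers fixed for the tissue were present. The 4 lignifying stem loci, the 6 green tissue loci (names from prior knowledge) and the 2 meristem loci were all well above background on every array. Their summed signal, in multiples of the 75th percentile, was 173 to 189 in knockout and 160.0 to 178 in wild-type arrays for stem, and 181 to 289 in knockout and 183 to 343 in wild-type arrays for green tissue. For meristem it was 30.2 to 35.0 in knockout and 34.3 to 36.0 in wild-type arrays. Such sums follow their brightest members, and the stem sum is mostly CAldOMT1. CESA4, CESA7 and CESA9 were each lowest on knockout replicate 1 at their brightest probe. Of the 6 green tissue loci, 2 were higher and 4 lower in the knockout. RBCS2 differed by 1.58 at its brightest probe (limma adjusted p = 0.112) and by 0.02 to 0.48 at its others. The part of these cell types in any clock difference was not tested.

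LHY (Os08g0157600, chromosome 8), the dawn gene, was bright in both genotypes and hardly differed between them. Its brightest probe read 5.69, 5.33 and 5.44 in knockout replicates 1, 2 and 3, against 5.59, 5.54 and 5.52 in wild-type replicates 1, 2 and 3. Knockout replicate 1 was the highest array, and knockout replicates 2 and 3 lay below the wild-type arrays. The genotypes differed by -0.06 ± 0.13 (log2, SE, n = 3 per genotype), with a 95% interval from -0.37 to 0.25 and a limma adjusted p of 0.834. The other 3 LHY probes differed by 0.07, 0.11 and 0.10, so that the probes of this locus did not share a direction. On each of those 3 probes knockout replicate 1 was the highest array, by 0.32, 0.41 and 0.43 over the wild-type mean, and without it their differences were -0.06, -0.03 and -0.07.

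**Figure D1:**
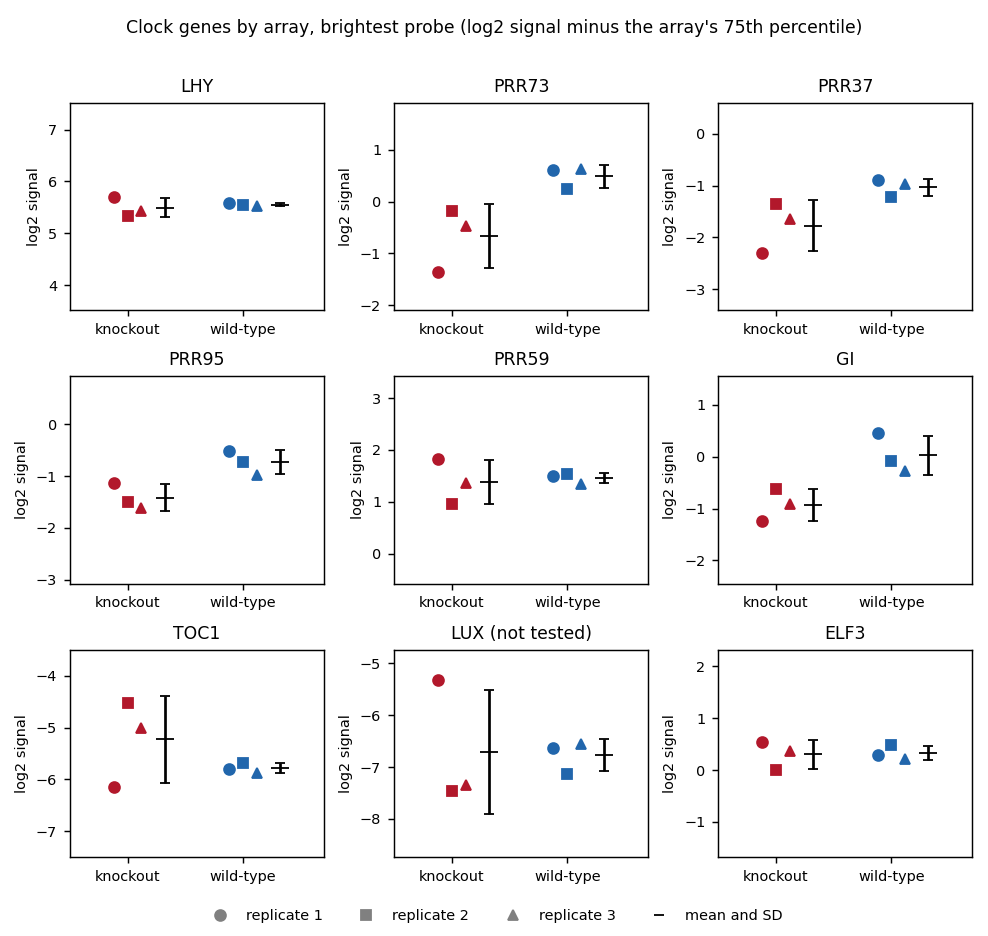
Log2 signal (vertical axis, relative to the 75th percentile of the array) of the brightest probe of each clock gene, with knockout arrays in red and wild-type arrays in blue, a symbol per replicate, and the mean with SD in black. Each panel spans the same number of log2 units. For PRR73, PRR37, PRR95 and GI every knockout array lies below every wild-type array, whereas LHY, PRR59, TOC1, LUX and ELF3 overlap. Of all tested probes, 13.4% had every knockout array below every wild-type array.

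Of the genes that follow LHY through the day, PRR73, PRR37 and PRR95 were lower in all 3 knockout arrays than in any wild-type array at their brightest probe. The same held for 13.4% of all tested probes. None of these genes passed the test over all probes, at a limma adjusted p under 0.05. PRR73 (Os03g0284100, chromosome 3) read -1.36, -0.17 and -0.48 in knockout replicates 1, 2 and 3, against 0.62, 0.24 and 0.62 in wild-type replicates 1, 2 and 3. The groups did not overlap, and knockout replicate 1 lay well below the other knockout arrays. The difference was -1.16 ± 0.32 (log2, SE, n = 3 per genotype), a signal 2.24-fold lower in the knockout, with a 95% interval from -1.94 to -0.39 and a limma adjusted p of 0.124. Leaving out knockout replicate 1 gave -0.82 (adjusted p = 0.0681). This probe had the largest difference of the locus. The other PRR73 probes differed by -0.65 to -0.84, and the mean of all tested PRR73 probes by -0.80.

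PRR37 (Os07g0695100, chromosome 7) carried the same order of knockout arrays. It read -2.30, -1.36 and -1.65 in knockout replicates 1, 2 and 3, against -0.90, -1.21 and -0.97 in wild-type replicates 1, 2 and 3. Knockout replicate 2 and wild-type replicate 2 were separated by 0.14 only. The difference was -0.74 ± 0.25 (log2, SE, n = 3 per genotype), which is 1.67-fold, with a limma adjusted p of 0.193. Without knockout replicate 1 it was -0.48, over 1.5 times smaller.

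PRR95 (Os09g0532400, chromosome 9) differed by a similar amount but with another order of arrays, since knockout replicate 1 was here the highest of the knockout arrays. It read -1.13, -1.50 and -1.62 in knockout replicates 1, 2 and 3, against -0.51, -0.73 and -0.97 in wild-type replicates 1, 2 and 3. The difference was -0.68 ± 0.19 (log2, SE, n = 3 per genotype), which is 1.60-fold, with a limma adjusted p of 0.124. Without knockout replicate 1 it was -0.82, and the probe in the coding sequence of PRR95 then passed, at -0.91 with an adjusted p of 0.0432, whereas the brightest did not (0.0585).

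PRR59 (Os11g0157600, chromosome 11), the nearest relative of PRR95, overlapped between the genotypes. Its 1 probe read 1.83, 0.97 and 1.35 in knockout replicates 1, 2 and 3, against 1.50, 1.54 and 1.34 in wild-type replicates 1, 2 and 3. The highest and the lowest value both belonged to knockout arrays. The difference was -0.08 ± 0.23 (log2, SE, n = 3 per genotype), with a 95% interval from -0.62 to 0.47, so that a change as large as that of PRR95 is just outside this interval while smaller ones are within it.

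GI (Os01g0182600, chromosome 1), a dusk gene, was lower in every knockout array. It read -1.24, -0.63 and -0.91 in knockout replicates 1, 2 and 3, against 0.46, -0.09 and -0.27 in wild-type replicates 1, 2 and 3. The gap between the nearest arrays of the genotypes was 0.35, close to the SD of 0.31 in knockout and 0.38 in wild-type arrays. The difference was -0.96 ± 0.25 (log2, SE, n = 3 per genotype), which is 1.94-fold, with a 95% interval from -1.55 to -0.36 and a limma adjusted p of 0.109. Without knockout replicate 1 it was -0.80, with an adjusted p of 0.124. The 4 GI probes, which read the same RNA, all separated the genotypes and ranged from -0.70 to -1.10. Of all tested probes, 13.4% had every knockout array below every wild-type array. The value of -1.10 (limma adjusted p = 0.0844) was at the probe in the 5′ UTR and coding sequence. With normexp background correction and quantile normalization that probe differed by -0.74 and the brightest GI probe by -1.07. The excess of 3′ over 5′ signal had a median over 446 loci of 1.90 ± 0.01 in knockout and 1.80 ± 0.01 in wild-type arrays (log2, SD, n = 3 each). For GI this excess was 1.58 ± 0.13 in knockout and 1.34 ± 0.08 in wild-type arrays, and for PRR37 1.92 ± 0.19 in knockout and 1.94 ± 0.02 in wild-type arrays. Its part in the differences was not tested.

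TOC1 (Os02g0618200, chromosome 2), the last of the pseudo-response regulators, was faint and did not follow GI. Its brighter probe read -6.15, -4.52 and -5.01 in knockout replicates 1, 2 and 3, against -5.79, -5.67 and -5.87 in wild-type replicates 1, 2 and 3. Knockout replicates 2 and 3 lay above every wild-type array and knockout replicate 1 below every one. The difference was 0.55 ± 0.40 (log2, SE, n = 3 per genotype; limma adjusted p = 0.507). Without knockout replicate 1 it was 1.01 with an adjusted p of 0.0472, past the threshold, in a fit that has 2 knockout arrays. The dimmer probe differed by 0.96 over all arrays (adjusted p = 0.267) and by 1.43 without that array (0.0197). On knockout replicate 1 this probe did not clear background. With normexp background correction and quantile normalization the 2 probes differed by 0.20 and 0.25.

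LUX (Os01g0971800, chromosome 1), the DNA-binding member of the evening complex, was close to background. It read -5.32, -7.46 and -7.34 in knockout replicates 1, 2 and 3, against -6.63, -7.13 and -6.56 in wild-type replicates 1, 2 and 3. Only 1 of 3 knockout arrays and 2 of 3 wild-type arrays had it well above background, so it was not tested; its means differed by 0.07. Knockout replicate 1 was the highest array for LUX and the lowest for the brighter TOC1 probe.

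ELF3 (Os06g0142600, chromosome 6), the scaffold of the evening complex, overlapped between the genotypes. It read 0.55, 0.00 and 0.37 in knockout replicates 1, 2 and 3, against 0.30, 0.47 and 0.21 in wild-type replicates 1, 2 and 3. The difference was -0.02 ± 0.17 (log2, SE, n = 3 per genotype), with a 95% interval from -0.44 to 0.39. With normexp it was 0.16. Its probe was designed from an expressed sequence tag and no other probe of the locus checks it.

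**Figure D2:**
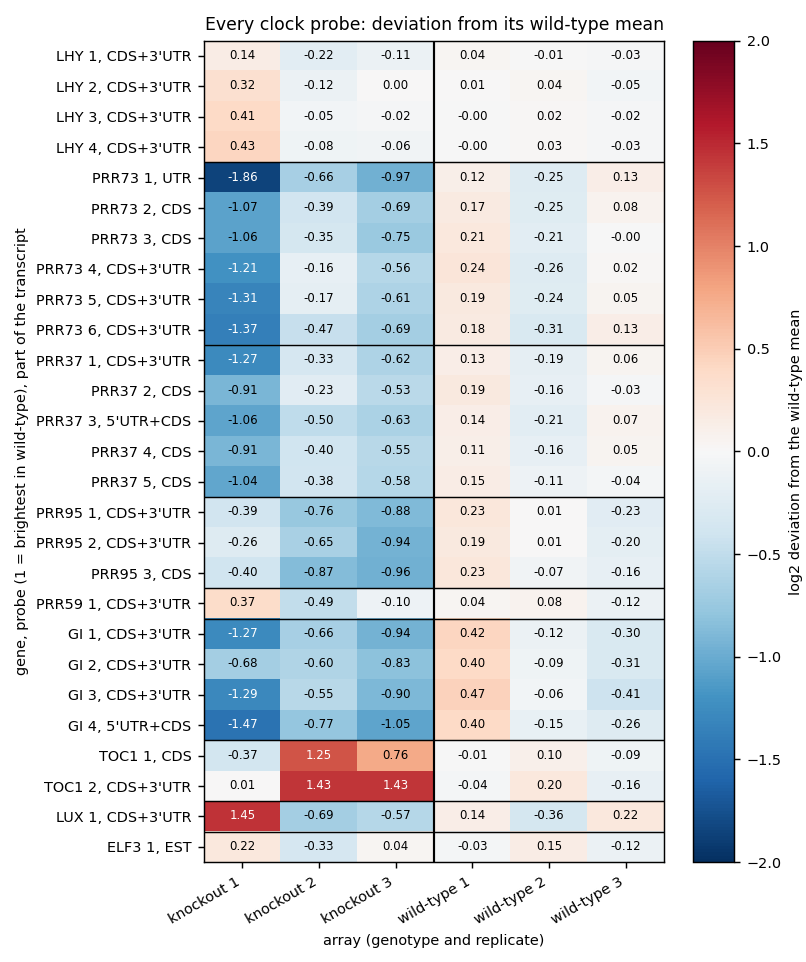
Deviation of each of the 27 clock probes from its own wild-type mean (log2, colour and printed value), with arrays in columns, knockout left, and probes in rows, grouped by gene from dawn to dusk and labelled with the part of the transcript they cover. The blue block of PRR73, PRR37, PRR95 and GI covers all 3 knockout arrays, from -0.16 to -1.86, and the TOC1 and LUX rows show knockout replicate 1 apart from the other knockout arrays.

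Probe by probe, none of the 26 tested clock probes passed the limma test over all probes, which called 3.16% of the 32134 probes tested. At an unadjusted limma p under 0.05 and lower in the knockout stood 16 of the 26 clock probes, where 8.88% of all tested probes did so. All 3 knockout arrays lay below all 3 wild-type arrays at 16 of the 26, against 13.4% of all tested probes. Those probes were 5 of 5 for PRR37, 4 of 4 for GI, 3 of 3 for PRR95 and 4 of 6 for PRR73. The other 2 PRR73 probes differed by -0.65 and -0.70, with knockout replicate 2 above 1 wild-type array. With normexp the PRR73 probe at -0.84 was at -0.35. Probes of 1 locus read the same RNA and are not replicates of each other. When only knockout replicates 2 and 3 were required to lie below the wild-type arrays, 19 of 26 clock probes did so, against 23.6% of all tested probes. The fit without knockout replicate 1 called 3 of the 26 clock probes, 2 of TOC1 and 1 of PRR95, against 4.68% of all tested probes.

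**Figure D3:**
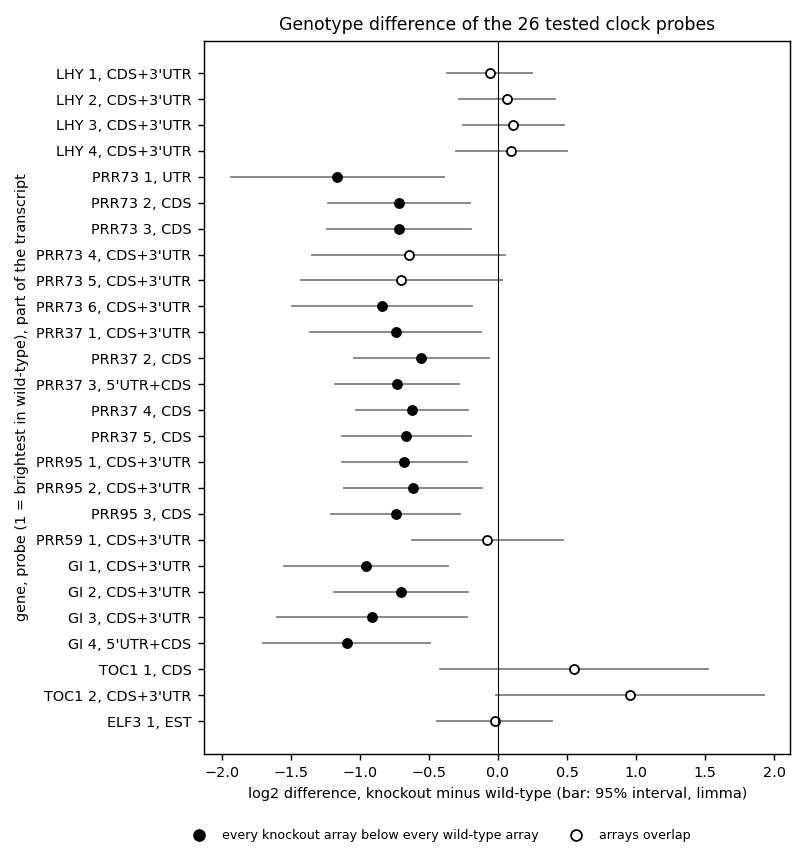
Log2 difference, knockout minus wild-type, of the 26 tested clock probes (points) with 95% intervals from limma (bars), ordered from dawn to dusk genes. Filled points mark probes at which every knockout array was below every wild-type array, and they fall between -0.56 and -1.16 in PRR73, PRR37, PRR95 and GI.

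By locus, 7 of the 8 tested clock genes had a negative difference and 1, TOC1, a positive one. Of all tested loci, 49.8% had a negative difference. The median over the 8 was -0.38, and over all 21798 tested loci it was 0.0014. At an unadjusted limma p under 0.05, in either direction, stood 4 of the 8, against 19.6% of all tested loci. Between knockout arrays the median SD of the 8 loci was 0.37, against 0.25 over all tested loci. Between wild-type arrays these medians were close, at 0.15 and 0.13. The largest knockout SDs of the 8 were those of faint TOC1 (0.83) and of PRR73 (0.62), where knockout replicate 1 stood apart. The differences of LHY, PRR59 and ELF3 were each smaller than their SE. In RNA from whole tissue, fewer cells of a type and less RNA per cell cannot be told apart.

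Dawn and dusk genes were then set beside each other array by array, to see whether the arrays fell at different points of the daily cycle. Because the brightness of a probe depends on its own sequence, no gene's level was set against another's, and each was taken as its deviation from its own wild-type mean. GI minus LHY was -1.42, -0.44 and -0.83 in knockout replicates 1, 2 and 3, against 0.39, -0.11 and -0.28 in wild-type replicates 1, 2 and 3. TOC1 minus LHY was -0.52, 1.47 and 0.87 in knockout replicates 1, 2 and 3, against -0.05, 0.11 and -0.06 in wild-type replicates 1, 2 and 3. The dusk genes thus moved against each other in knockout replicates 2 and 3, where GI was below and TOC1 above its wild-type mean.

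Averaged over TOC1, GI and LUX, the dusk genes minus LHY came to -0.21, 0.19 and -0.14 in knockout replicates 1, 2 and 3, against 0.15, -0.12 and -0.03 in wild-type replicates 1, 2 and 3. Their mean was -0.05 ± 0.21 in knockout and 0 ± 0.13 in wild-type arrays (SD, n = 3 each), a difference of -0.05. This mean takes in LUX, which was near background on most knockout arrays, and faint TOC1, so it is a weak measure. With TOC1 and GI, leaving LUX out after its values were seen, the difference was -0.14, and with GI alone it was -0.90. The 4 day genes PRR73, PRR37, PRR95 and PRR59 averaged -0.66 ± 0.11 in knockout and 0 ± 0.12 in wild-type arrays (SD, n = 3 each). Per array this day mean was -0.79, -0.56 and -0.64 in knockout replicates 1, 2 and 3, against 0.13, -0.09 and -0.04 in wild-type replicates 1, 2 and 3. The knockout arrays were alike in this mean, although replicate 1 reached it through PRR73 and PRR37 while PRR59 was above its wild-type mean. A sampling hour cannot be read from these values, since no time course was analysed here, and time of harvest was not tested.

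**Figure D4:**
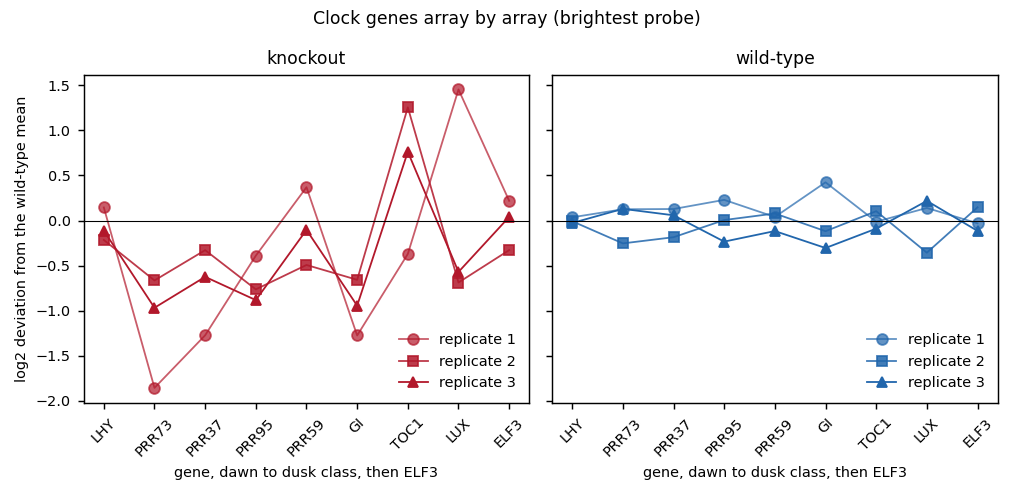
Deviation of the brightest probe of each clock gene from its wild-type mean (log2, vertical axis), a line per array, with knockout arrays in the left panel and wild-type arrays in the right, and genes ordered from dawn to dusk, then ELF3. Knockout lines lie below 0 at PRR73, PRR37, PRR95 and GI and part at TOC1 and LUX, where replicate 1 runs opposite to replicates 2 and 3, while wild-type lines stay between -0.36 and 0.42.

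The genes whose profile over the 6 arrays lay closest to that of GI were sought among 33 other listed loci, by the root mean square distance between profiles centred on their own means. They were PRR37 at 0.25, PRR73 at 0.31 and PRR95 at 0.35 log2 units. The nearest to LHY were OSH15, a meristem homeobox gene, at 0.06, the phytochrome gene PHYC at 0.07 and the casein kinase gene HD6 at 0.08, all genes that varied little. The 6 arrays form 2 genotypes, so such closeness in part restates which genes differed between genotypes.

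Around the clock, 12 loci of light input and clock-associated proteins were listed, namely phytochromes, cryptochromes, F-box photoreceptors, ELF3-2 and 2 kinases. Of these 11 were tested and 0 passed by limma over all probes at their brightest probe, with 1 at an unadjusted p under 0.05, where 19.6% of all tested loci stood. Their median difference was -0.04, with 9 lower and 2 higher in the knockout. The largest was that of the blue-light receptor CRY2, which read 1.66, 1.48 and 1.84 in knockout replicates 1, 2 and 3, against 2.11, 2.15 and 2.05 in wild-type replicates 1, 2 and 3. The genotypes did not overlap at any of the 6 CRY2 probes, which ranged from -0.31 to -0.47 (13.4% of all tested probes had every knockout array below every wild-type array). With normexp they ranged from -0.12 to -0.68, and 2 of the 6 passed, at -0.68 (limma adjusted p = 0.0247) and -0.60 (0.0431), where 2.96% of all probes were called. At its brightest probe the difference was -0.44 ± 0.13 (log2, SE, n = 3 per genotype; limma adjusted p = 0.140). The casein kinase gene HD16, which acts on flowering repressors, differed by -0.27 ± 0.12 (log2, SE; limma adjusted p = 0.272), and the phytochrome gene PHYA by -0.10 ± 0.20 (0.814). Both HD16 probes, at -0.27 and -0.20, also had every knockout array below every wild-type array. FKF1, a blue-light receptor that works with GI in Arabidopsis, was not well above background on any of the 6 arrays.

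Of 6 flowering regulators downstream of the clock, 3 were tested and 0 passed by limma, with 1 at an unadjusted p under 0.05, against 19.6% of all tested loci. DTH8, a subunit of a CCAAT-binding complex that regulates heading, read -3.97, -4.27 and -3.94 in knockout replicates 1, 2 and 3, against -4.71, -4.27 and -4.78 in wild-type replicates 1, 2 and 3. Its difference was 0.52 ± 0.18 (log2, SE, n = 3 per genotype; limma adjusted p = 0.195), and 0.23 with normexp (0.289). HD3A, the rice florigen, and HD1, a CONSTANS-type regulator, differed by -0.49 ± 0.48 and -0.18 ± 0.39 (log2, SE). With normexp these were -0.14 and -0.06. EHD1 was not well above background on any array, and GHD7 was not analysed here.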

How the data were processed

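Cy3-labelled RNA (from 0.1 µg total RNA) was read on rice 1-colour arrays from Agilent, per the labels. What the authors deposited for each array is an intensity per spot from Feature Extraction 12.0.3.1 with background already subtracted, per the file headers, beside 0/1 flags held as other columns. A value table that the authors also deposited equals that intensity times 1 constant per array (1.51 to 1.72), with column medians from 376 to 388. The sources used here do not say how the constants were set.

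Deposited intensities were turned into log2 values, and the 75th percentile of the array was subtracted. Outlier spots (5 to 9 per array) and the 590 control spots of the design were dropped, and replicate spots were averaged per probe. A probe was tested where over 0.5 of its spots were well above background on all 3 arrays of 1 genotype, given 2 or more measured arrays in both. Genotype was fitted with limma 3.58.1 in R 4.3.3 (two-sided, Benjamini-Hochberg over 32134 probes, threshold 0.05), and the scripts were tested on simulated data. The brightest probe stood for a locus. Every clock locus is named; of other lists, called members or otherwise the 3 largest differences. Members and lists were chosen with earlier results of these data known. Nothing in the labels says that replicates came from separate plantings. The p-values set the genotype difference against the spread between these samples within a genotype. The values of 1 listed flowering regulator are not reported here.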

Additional observations from a re-analysis of the deposited data

How the results depend on the processing

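Over 17 alternatives each, the differences of GI (-1.11 to -0.75), PRR73 (-1.41 to -0.80), PRR37 (-0.95 to -0.48) and PRR95 (-0.82 to -0.56) stayed negative and did not pass, with adjusted p from 0.0674 to 0.265, 0.0681 to 0.343, 0.136 to 0.447 and 0.0585 to 0.338 in that order. TOC1 stayed positive (0.20 to 1.01; adjusted p 0.0472 to 0.839) and passed only without knockout replicate 1, which took the called clock loci from 0 to 1; leaving out other arrays left 0. Leaving out single arrays gave -0.14 to 0.13 for ELF3, -0.16 to 0.016 for LHY and -0.30 to 0.13 for PRR59. ELF3 was at 0.16 with normexp, and LHY at 0.053 as the mean of its probes. The cause of these turns was not tested.

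The median clock difference was -0.076 with no filter on dim probes, which adds LUX, and -0.42 to -0.31 when single arrays were left out. The dusk minus dawn difference was -0.26 with normexp, -0.90 with GI alone, -0.14 with TOC1 and GI, and -0.17 to 0.02 when single arrays were left out. Counted after seeing the data, 16 or 17 clock probes lay below every wild-type array under other scalings, and 16 to 19 when single arrays were left out. Leaving an array out can only keep or raise this count, so the second range is no check of it. Over all tested probes the share rose from 13.4% to 23.6% without knockout replicate 1. Of all probes, 1016 were called (600 higher, 416 lower), 645 with no filter, 458 with the replicate block and 136 to 1505 without single arrays. With normexp the split was 456 higher and 494 lower. Without the array named, calls numbered 145, 197 and 136 for wild-type replicates 1, 2 and 3, and 1505, 245 and 1260 for knockout replicates 1, 2 and 3. To look for pairs, each probe's mean within its genotype was subtracted, and knockout arrays were then correlated with wild-type arrays. These remainders correlated at 0.409, -0.17 and 0.164 for same-numbered replicates 1, 2 and 3, and at -0.487 to 0.349 for differently numbered ones. With 3 arrays per genotype, these values cannot decide whether equal numbers mark pairs. The replicate block called 0 clock loci. Slide could not be a block because each holds 1 genotype. Array number and, for TOC1 and LUX, signal close to background limit these values.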
